A study of Mus musculus with 10 samples.

Results

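The 10 genes described here are the p53 family, Trp53, Trp63 and Trp73, with Mdm2 and Cdkn2a, which set how much p53 a cell holds, and 5 well-known p53 target genes, Cdkn1a, Ccng1, Bbc3, Pmaip1 and Bax. They were chosen by name as readouts of DNA damage and senescence in carcinogen-treated skin. All 10 were among the 24452 named genes of the count table, and all 10 passed the filter on low counts. p53, the product of *Trp53*, is held at a low level by the ubiquitin ligase MDM2 and accumulates when DNA is damaged, mainly because the protein becomes more stable. It then binds the promoters of genes that halt the cell cycle, repair DNA or start cell death, and *Mdm2* is itself one of its targets, which closes a feedback loop. In skin, p63, the product of *Trp63*, maintains the basal cells of the epidermis, and chemical carcinogenesis is a classical setting in which the p53 pathway has been studied.

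The mice were C57BL/6, 5 wild type (WT) and 5 that carried Zfp36ΔARE, a knock-in at the gene of tristetraprolin (TTP), an RNA-binding protein that speeds the decay of mRNAs with AU-rich elements. In Zfp36ΔARE mice an instability motif is missing from the 3′-UTR of the endogenous *Zfp36* gene in every cell, so the allele is neither skin-specific nor inducible. Treatment began at 7 weeks of age with 400 nmol of the mutagen DMBA in both groups. The tumor promoter TPA followed at 10 nmol, 2 times a week for 20 weeks, and no untreated skin was included, so every level below is a level after carcinogen treatment. Whole non-tumoral back skin of each mouse gave 1 library.

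Total counts ranged from 21638400 to 32583217 in WT and from 19595035 to 36419573 in Zfp36ΔARE libraries. The gene that carries the allele, *Zfp36*, had normalized counts of 2051, 2496, 1824, 2377 and 2011 in WT libraries 1 to 5 and of 5781, 5202, 5820, 6134 and 4196 in Zfp36ΔARE libraries 1 to 5. Every library therefore stood on the side of its label (log2 fold change 1.33, standard error 0.12, adjusted p = 0.0019, edgeR's quasi-likelihood test), although gene counts do not show the deletion itself. The 5 WT libraries and Zfp36ΔARE library 1 had at most 1 count from 4 Y-linked genes, whereas Zfp36ΔARE libraries 2 to 5 had between 3349 and 4262, so sex, as these transcripts mark it, is partly confounded with genotype, and only Zfp36ΔARE library 1 can be set beside WT libraries of the same mark. The make-up of the skin pieces also differed. The mean log2(CPM + 1) of 10 hair shaft keratins, where CPM is the count scaled to library size, ran from 2.44 to 8.14 in WT and from 8.89 to 10.28 in Zfp36ΔARE skin, and was lowest in WT libraries 3 (2.44) and 1 (5.21). At an adjusted p under 0.05 (edgeR), 19.1% of all genes tested were lower and 15.3% higher in Zfp36ΔARE skin. By that rule all 10 skeletal muscle, 10 of 10 macrophage, 6 of 6 endothelial and 6 of 8 adipocyte markers were lower. So were 3 of 6 fibroblast, 2 of 6 basal and 1 of 5 suprabasal keratinocyte markers. Of the hair shaft keratins 2 of 10 passed as higher, of 10 proliferation markers 1, and of 7 inner root sheath and 8 T cell markers none passed. The log2 fold changes, passed or not, ran from 1.38 to 2.41 for hair shaft and from 0.996 to 1.75 for inner root sheath markers. They ran from -1.47 to -0.28 for adipocyte and from -0.88 to -0.15 for fibroblast markers. In whole tissue, fewer cells of a type and less RNA per cell cannot be told apart.

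The promoters of p53 targets hold response elements made of half-sites of 10 bases, each 3 purines, a C, 2 A or T bases, a G and 3 pyrimidines. RefSeq promoter windows of 300 bases, 250 before and 50 after a start site, matched 8 of the 10 genes, all but Trp63 and Pmaip1. A half-site was present in windows of 5 of them, Trp53, Mdm2, Cdkn1a, Ccng1 and Bax, and in windows of 9.55% of all 27025 genes. Counted by window, it was present in 5 of the 13 windows of members and in 8.36% of all 32851 windows. The 225 bases from 250 to 26 before the start site are shown for these 5, to show where the half-sites lie in the genes whose levels are given below, 5′ to 3′ on the strand of the gene, from build GRCm38.p6, with half-sites in capitals. They come from chr11:69580109-69580333 (plus strand), chr10:117710784-117711008 (minus), chr17:29090729-29090953 (plus), chr11:40755312-40755536 (minus) and chr7:45466924-45467148 (minus).
Trp53: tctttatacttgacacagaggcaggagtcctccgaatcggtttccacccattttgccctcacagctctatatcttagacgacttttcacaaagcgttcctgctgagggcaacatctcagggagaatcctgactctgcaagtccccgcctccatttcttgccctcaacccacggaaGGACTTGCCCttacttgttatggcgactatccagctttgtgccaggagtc
Mdm2: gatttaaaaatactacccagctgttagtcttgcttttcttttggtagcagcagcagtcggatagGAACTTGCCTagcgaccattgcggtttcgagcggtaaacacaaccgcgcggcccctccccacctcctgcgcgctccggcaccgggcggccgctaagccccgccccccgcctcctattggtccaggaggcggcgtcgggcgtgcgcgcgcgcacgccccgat
Cdkn1a: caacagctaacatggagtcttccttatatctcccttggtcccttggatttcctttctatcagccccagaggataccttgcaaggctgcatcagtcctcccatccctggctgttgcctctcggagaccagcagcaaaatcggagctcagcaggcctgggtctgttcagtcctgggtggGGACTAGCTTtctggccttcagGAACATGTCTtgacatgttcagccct
Ccng1: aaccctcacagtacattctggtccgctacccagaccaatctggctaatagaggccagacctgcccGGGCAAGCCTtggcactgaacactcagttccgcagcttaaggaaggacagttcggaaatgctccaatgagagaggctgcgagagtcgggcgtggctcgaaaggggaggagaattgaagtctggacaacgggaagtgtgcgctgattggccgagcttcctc
Bax: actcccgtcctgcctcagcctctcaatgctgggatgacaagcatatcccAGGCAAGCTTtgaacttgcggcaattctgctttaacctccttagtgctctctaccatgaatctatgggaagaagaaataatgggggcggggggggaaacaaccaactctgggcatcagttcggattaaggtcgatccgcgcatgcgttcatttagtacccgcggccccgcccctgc
The Cdkn1a window was the only one of a member with a pair of half-sites in reach of each other, 73 to 42 bases before the start and 12 bases apart. Of all windows, 0.0731% held such a pair with at most 13 bases between. No half-site lay in the windows of Trp73, Cdkn2a and Bbc3 or in a further Cdkn1a window, which says only that these letters are not there. A match describes sequence and is not a measured binding site.

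In edgeR's quasi-likelihood fit, with p-values adjusted over all 15543 genes tested (Benjamini-Hochberg), 2 of the 10 had an adjusted p under 0.05, *Bax* higher and *Ccng1* lower in Zfp36ΔARE skin. Of all genes tested, 34.3% passed, 15.3% higher and 19.1% lower, so the share among the members did not exceed the background. None of the 10 also changed more than 2-fold, against 8.34% of all genes, and in none did the 5 values of one group lie wholly beyond those of the other, against 23.1% of all genes. The members' median log2 fold change was 0.021, beside 0.0076 over all genes, and 5 point estimates were above 0 and 5 below. An unadjusted p under 0.05 was found in 4 genes, the called pair with *Mdm2* and *Trp73*.

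**Figure D1:**
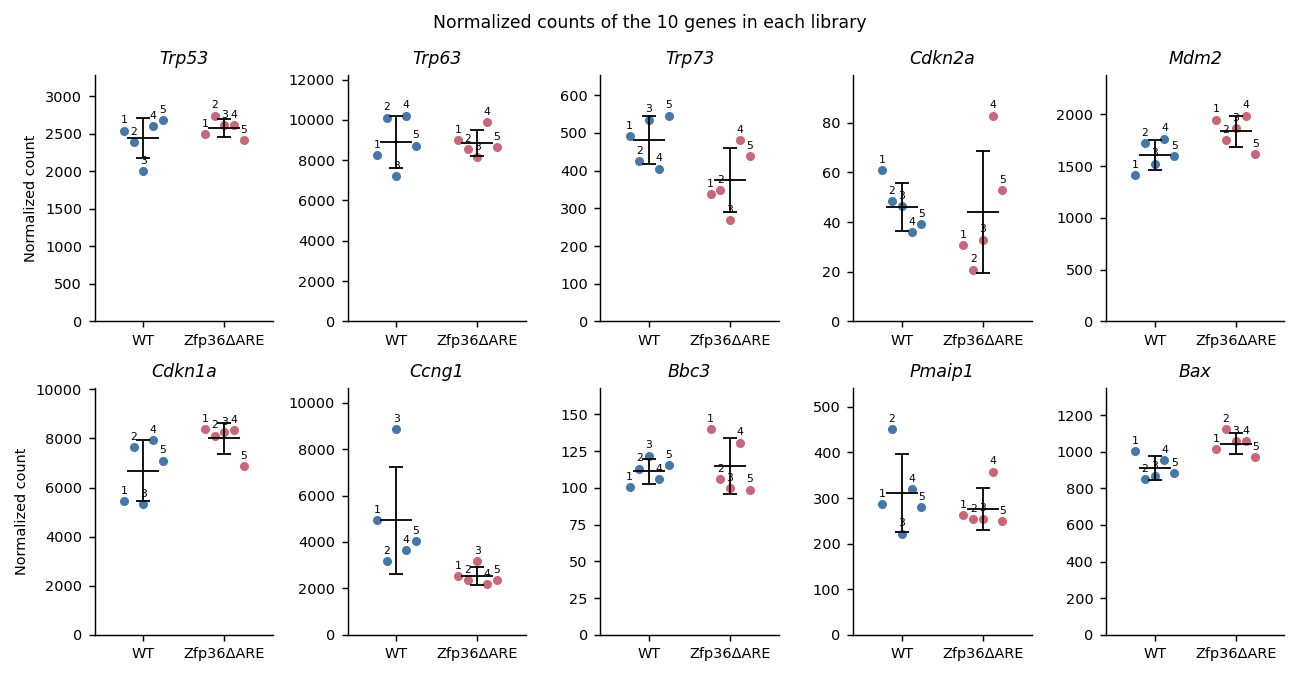
Normalized counts (linear axis from 0) of each of the 10 genes in 5 WT and 5 Zfp36ΔARE libraries, numbered by replicate, with the group mean and SD in black. WT library 3 stands at 8867 for *Ccng1*, and the groups overlap for every gene.

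*Trp53* itself, on chromosome 11 from 69580359 to 69591873, gave no difference beyond the spread. WT libraries 1 to 5 had normalized counts of 2543, 2394, 1999, 2604 and 2682, and Zfp36ΔARE libraries had 2492, 2742, 2612, 2618 and 2418. Apart from WT library 3, the lowest of the 10, the libraries of both groups shared 1 range. The log2 fold change was 0.076 (standard error 0.080, 95% interval -0.10 to 0.25, adjusted p = 0.47, edgeR), so log2 differences over 0.25 in either direction lay outside the interval. Protein stability, through which p53 is mostly controlled, was not measured.

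*Trp63*, on chromosome 16 from 25683763 to 25892102, gave no difference beyond the spread either. Its normalized counts were 8257, 10114, 7212, 10206 and 8727 in WT and 9012, 8562, 8150, 9874 and 8656 in Zfp36ΔARE libraries. WT libraries 1 and 3 held 2 of the 3 lowest values, and WT libraries 2 and 4 the highest. Its log2 fold change was -0.0085 (standard error 0.10, 95% interval -0.24 to 0.22, adjusted p = 0.96, edgeR). Gene counts do not separate the long TAp63 from the ΔNp63 isoforms, the latter of which prevail in basal epidermis.

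*Trp73*, on chromosome 4 from 154056253 to 154140208, codes for the third family member, p73, which shares many target genes with p53. WT libraries had 492, 425, 536, 406 and 546 normalized counts and Zfp36ΔARE libraries had 337, 349, 269, 482 and 439. Zfp36ΔARE libraries 1 to 3 lay below every WT library, and libraries 4 and 5 lay within the WT range. The log2 fold change was -0.36 (standard error 0.16, 95% interval -0.71 to -0.013, adjusted p = 0.096, edgeR), and it passed the threshold without Zfp36ΔARE library 4 (-0.47, adjusted p = 0.047). The annotated antisense gene Trp73os shares 280 exonic bases with *Trp73*, and the sources used here do not say if strand was used in counting.

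Of the genes that control p53, *Mdm2* (chromosome 10, 117688875 to 117710758) had slightly higher values in Zfp36ΔARE skin. Normalized counts were 1416, 1724, 1525, 1766 and 1598 in WT and 1950.5, 1755, 1865, 1988 and 1619 in Zfp36ΔARE libraries. The ranges overlapped through WT libraries 2 and 4 and Zfp36ΔARE libraries 2 and 5. The log2 fold change of 0.19 (standard error 0.078, 95% interval 0.020 to 0.37) did not pass the adjusted test (adjusted p = 0.077, edgeR), and passed it without Zfp36ΔARE library 5 (0.23, adjusted p = 0.042). Without WT libraries 1 and 3, the pair with the fewest hair transcripts, it was 0.11 (adjusted p = 0.31). *Mdm2* relative to *Trp53* within each library, a comparison free of scaling between libraries, differed by 0.11 on the log2 scale (exact two-sided permutation p = 0.32, 0.39 after adjustment over 5 such pairs).

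*Cdkn2a* (chromosome 4, 89274471 to 89294653) codes for p16INK4a, an inhibitor of CDK4 and CDK6, and for p19ARF, an inhibitor of MDM2, and it marks senescent cells. It had only 23 to 66 raw counts a library. Normalized counts were 60.8, 48.5, 46.4, 35.9 and 39.2 in WT and 30.7, 20.8, 32.9, 82.8 and 52.7 in Zfp36ΔARE libraries, so the lowest and the highest value both came from Zfp36ΔARE skin. The log2 fold change was -0.096 with a 95% interval from -0.85 to 0.66 (adjusted p = 0.84, edgeR), which leaves room for a change of either sign. The counts are of the whole gene and do not separate p16INK4a from p19ARF. Its neighbour *Cdkn2b*, which codes for the related inhibitor p15INK4b, was at 417 ± 56.9 in WT and 464 ± 75.3 in Zfp36ΔARE skin (SD, n = 5 each), and the within-library difference of the pair did not differ between genotypes beyond the spread (-0.24 on the log2 scale, exact permutation p = 0.29, adjusted 0.39).

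*Cdkn1a* (chromosome 17, 29090976 to 29100727), which codes for the CDK inhibitor p21 and has the paired half-sites shown above, is the target most often read as p53 activity. Normalized counts were 5457, 7649, 5317, 7943 and 7098 in WT and 8387, 8116, 8263, 8354 and 6889 in Zfp36ΔARE libraries. Zfp36ΔARE libraries 1 to 4 lay above every WT library and library 5 lay within the WT range, while WT libraries 1 and 3 were the lowest of the 10. The genotypes differed by a log2 fold change of 0.26 (standard error 0.12, 95% interval -0.016 to 0.53, adjusted p = 0.12, edgeR), and 0.080 without WT libraries 1 and 3 (adjusted p = 0.51). As deviations from the group means over the 10 libraries, *Cdkn1a* followed the hair shaft score (Pearson's r = 0.859, Spearman's rho = 0.891, and r = 0.789 without the 2 libraries with extreme scores). The level relative to *Trp53* within a library was higher by 0.19 on the log2 scale (exact permutation p = 0.12, adjusted 0.30). An unnamed transcript annotation on the opposite strand, AC167363.2, shares 273 exonic bases with *Cdkn1a*.

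*Ccng1* (chromosome 11, 40748552 to 40755311) codes for cyclin G1, a p53 target that acts in the MDM2 loop, and was the member with the largest difference. Its normalized counts were 4930, 3169, 8867, 3635 and 4035 in WT and 2532, 2346, 3180, 2167 and 2356 in Zfp36ΔARE libraries. WT library 3 stood far above all others, and the groups overlapped only where Zfp36ΔARE library 3 (3180) just exceeded WT library 2 (3169). The level was 1.96-fold higher in WT (log2 fold change -0.97, standard error 0.26, 95% interval -1.54 to -0.40, adjusted p = 0.019, edgeR), with an exact permutation p of 0.016. The call held in all 10 fits that left out 1 library each. Without WT library 3 the log2 fold change was -0.65 (adjusted p = 0.012), and without WT libraries 1 and 3 it was -0.52 (adjusted p = 0.028).

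The level of *Ccng1* moved with that of muscle transcripts. The mean log2(CPM + 1) of 10 skeletal muscle markers was 10.42 ± 0.86 in WT and 8.92 ± 0.49 in Zfp36ΔARE skin (SD, n = 5 each), with ranges of 9.32 to 11.65 and 8.31 to 9.68. The markers with the most counts, *Myh4* and *Acta1*, which code for a fast myosin heavy chain and skeletal actin, fell by 1.88 and 1.52 on the log2 scale (adjusted p = 0.036 and 0.011, edgeR). As deviations from the group means, *Ccng1* followed this score over the 10 libraries with r = 0.943 and rho = 0.879 (r = 0.889 without WT libraries 2 and 3), and the adipocyte score with r = 0.960 and rho = 0.903 (r = 0.802 without the same pair). These points share their library and its scaling, and no test was made of them. With the muscle score as a term in the fit, the log2 fold change of *Ccng1* was 0.0067 (adjusted p = 0.99, edgeR), and with the hair shaft score it was -0.25 (adjusted p = 0.64). These terms left 2 and 30 of all 15543 genes called, so they took away nearly every call and not only this one. The part of muscle, fat or hair in the result was not tested.

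**Figure D2:**
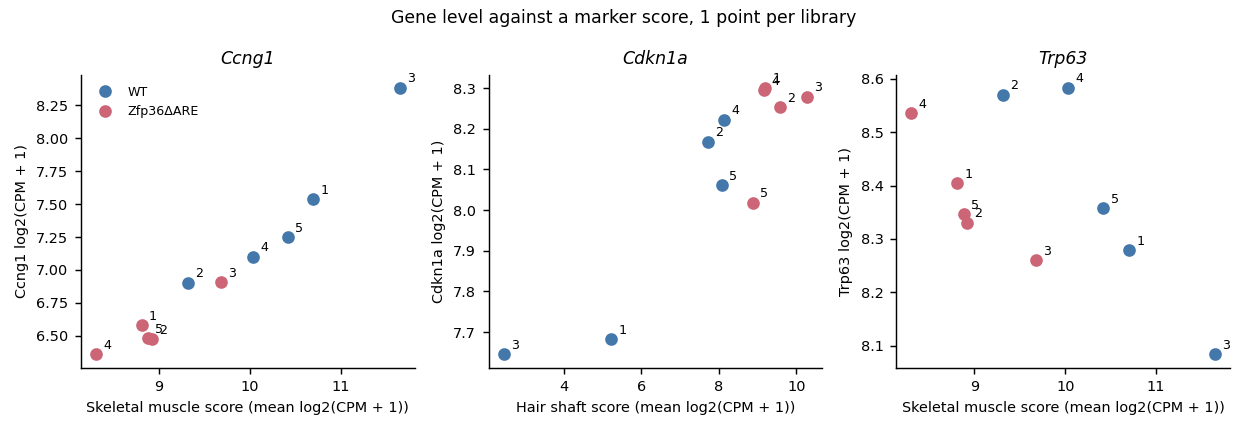
Level of *Ccng1*, *Cdkn1a* and *Trp63* (vertical axes, log2(CPM + 1)) against the mean log2(CPM + 1) of 10 skeletal muscle or 10 hair shaft markers (horizontal axes), 1 point per library, numbered by replicate. *Ccng1* was higher where the muscle score was higher in both groups, and WT libraries 1 and 3 had the lowest hair score and the lowest *Cdkn1a*.

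The apoptosis targets differed little between genotypes. *Bax* (chromosome 7, 45461697 to 45466898), whose product permeabilizes mitochondria during cell death, had normalized counts of 1002, 852, 865, 955 and 883 in WT and 1013, 1124, 1058, 1060 and 969 in Zfp36ΔARE libraries. All Zfp36ΔARE libraries except number 5 were above every WT library. It rose by 0.20 on the log2 scale (standard error 0.065, 95% interval 0.054 to 0.34, adjusted p = 0.038, edgeR), with an exact permutation p of 0.016. The adjusted p passed in only 3 of the 10 fits that left out 1 library and was lost without WT libraries 2, 3 or 5 or Zfp36ΔARE libraries 1, 2, 3 or 4, with estimates from 0.17 to 0.23. Its annotation shares 192 exonic bases with Gm45808 on the same strand, so some of its fragments could belong to either.

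The survival gene *Bcl2*, whose product holds BAX in check, was at 437 ± 58.8 in WT and 359 ± 57.4 normalized counts in Zfp36ΔARE skin (SD, n = 5 each; log2 fold change -0.28, adjusted p = 0.11, edgeR). *Bax* relative to *Bcl2* within a library was higher by 0.46 on the log2 scale in Zfp36ΔARE skin (exact permutation p = 0.024), which did not pass after adjustment over the 5 pairs (0.12). *Bbc3* and *Pmaip1* code for PUMA and NOXA, the BH3-only proteins that p53 induces to trigger death. *Bbc3* was at 111 ± 8.45 in WT and 115 ± 19.0 normalized counts in Zfp36ΔARE skin (SD, n = 5 each; log2 fold change 0.051, 95% interval -0.25 to 0.35, adjusted p = 0.79, edgeR). *Pmaip1* was at 312 ± 85.5 and 276 ± 46.3 (log2 fold change -0.18, 95% interval -0.59 to 0.22, adjusted p = 0.45, edgeR), with its highest value, 452, in WT library 2. Neither differed beyond the spread between libraries.

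**Figure D3:**
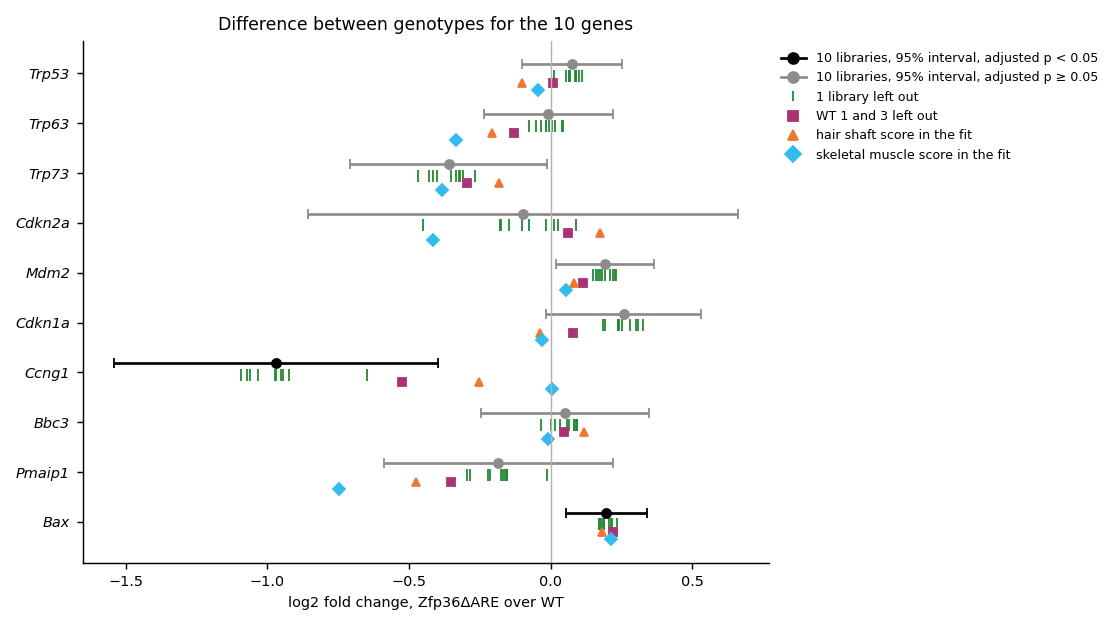
Log2 fold change of Zfp36ΔARE over WT (horizontal axis) for each gene, with its 95% interval in the fit of 10 libraries (circles), and the estimates with 1 library left out, without WT libraries 1 and 3, and with a hair shaft or skeletal muscle score in the fit. *Ccng1* moved from -0.97 to -0.52 without WT libraries 1 and 3 and to 0.0067 with the muscle score, whereas *Bax* stayed between 0.17 and 0.23 in the estimates shown.

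Levels of the members were compared with each other as RPKM, which divides CPM by gene length. In WT skin *Cdkn1a* was highest at 123 ± 22.7, followed by *Trp63* (55.1 ± 7.87), *Ccng1* (52.96 ± 24.7), *Trp53* (49.0 ± 5.43), *Bax* (39.3 ± 2.77) and *Mdm2* (19.4 ± 1.74) (RPKM, mean ± SD, n = 5). *Pmaip1*, *Trp73*, *Bbc3* and *Cdkn2a* stood at 4.41, 3.38, 2.11 and 1.52. *Cdkn1a* was above every other member in all 5 libraries of each genotype, and in WT skin the range of *Trp63* overlapped with that of *Ccng1*, that of *Ccng1* with *Trp53* and that of *Trp53* with *Bax*. In Zfp36ΔARE skin the order was the same except that *Ccng1*, at 27.0 ± 4.22, came after *Trp53* (51.7) and *Bax* (45.1) and overlapped with *Mdm2* (22.2).

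Between libraries, some members varied together. As deviations from the group means over the 10 libraries, *Mdm2* and *Cdkn1a* had r = 0.859 (rho = 0.842), *Trp63* and *Cdkn1a* r = 0.803 (rho = 0.867), and *Trp63* and *Ccng1* r = -0.907 (rho = -0.903). For *Trp53* and its targets the values were of both signs, with r = 0.224 for *Mdm2*, 0.583 for *Cdkn1a*, 0.584 for *Bax*, 0.347 for *Pmaip1*, -0.273 for *Bbc3* and -0.683 for *Ccng1*. *Trp63* ran against the skeletal muscle score (r = -0.938, rho = -0.952, and -0.877 without WT libraries 2 and 3) and with the basal keratinocyte score (r = 0.705, rho = 0.842). It also ran with the inner root sheath (r = 0.8) and hair shaft scores (r = 0.724), and against the adipocyte (r = -0.876) and endothelial scores (r = -0.765). The within-library level of *Trp63* relative to the basal keratin gene *Krt14* did not differ between genotypes beyond the spread (0.22 on the log2 scale, exact permutation p = 0.39). Among 13690 genes whose normalized counts averaged 50 or more, the closest to *Trp53* were *Sf3b2* (r = 0.979) and *Pdcd11* (0.973), to *Trp63* *Anxa1* (0.984) and *Hdac3* (0.982), to *Cdkn1a* *Shb* (0.989) and *Gm4559* (0.988), and to *Mdm2* *Wnt9a* (0.971) and *Mirt1* (0.970). These are descriptions over 10 libraries that share tissue make-up and scaling.

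Because TTP binds AU-rich elements in 3′-UTRs, the longest annotated 3′-UTR of each gene (GENCODE M21) was searched for the pentamer ATTTA and the nonamer TTATTTATT, which contains it. Sequence of *Pmaip1* was not analysed here. Of the other 9 genes, *Mdm2* held 8 pentamers in 1335 bases, *Ccng1* 8 in 2316, *Trp63* 6 in 3064, *Cdkn1a* 4 in 1334 and *Trp53* 1 in 565. The 3′-UTRs of *Trp73*, *Cdkn2a*, *Bbc3* and *Bax* held none. A pentamer was present in 66.1% and a nonamer in 7.73% of 20620 genes. The only nonamer among the members, in *Mdm2*, is shown with the first and the last pentamer of *Ccng1*, the called gene that holds any, with the pentamer in capitals and the position counted from the first base after the stop codon.
Mdm2, position 1279: ttgatgttATTTAtttgcaaa
Ccng1, position 347: tgtagcttATTTAaagttgca
Ccng1, position 1775: gaaaatgtATTTAttgcacta
Among the genes with pentamers, log2 fold changes were 0.19 for *Mdm2*, -0.97 for *Ccng1*, -0.0085 for *Trp63*, 0.26 for *Cdkn1a* and 0.076 for *Trp53*. Only *Ccng1* of these passed, and it was at 0.0067 with the muscle score in the fit. A relation between pentamers and these differences was not tested. mRNA decay was not measured.

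Around the members, the 16 tested regulators of p53 had 4 genes higher and 1 lower (31.2% called, median log2 fold change 0.15). In the same fit 34.3% of all genes were called, 15.3% higher and 19.1% lower. *Ppp1r13b*, which codes for ASPP1, a partner that steers p53 to apoptotic genes, rose by 0.93 on the log2 scale (standard error 0.18, adjusted p = 0.0076, edgeR). Its groups did not overlap, as in 23.1% of all genes. Its relatives *Trp53bp2* and *Ppp1r13l*, for ASPP2 and the inhibitory iASPP, rose by 0.33 each (adjusted p = 0.0097 and 0.045, edgeR). The ubiquitin ligase gene *Rchy1* rose by 0.14 (adjusted p = 0.045, edgeR), and like *Ppp1r13l* it was near the threshold. *Twist1*, a mesenchymal transcription factor that restrains p53, fell by 1.13 on the log2 scale (standard error 0.19, adjusted p = 0.0053, edgeR). The 3 with the most counts, regardless of length, did not pass, *Usp7* (0.16, adjusted p = 0.072), *Mdm4* (0.11, adjusted p = 0.28) and *Ep300* (0.16, adjusted p = 0.087), which code for a deubiquitinase of MDM2, an MDM2 relative and an acetyltransferase.

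Of 32 further genes listed as p53 targets and tested, 4 were higher and 5 lower (28.1% called, against 34.3% of all genes, median 0.076). The lists share some genes. *Ddb2*, *Xpc* and *Ercc5* are also in the list of nucleotide excision repair below, and *Perp* is also in that of epidermal genes under p63. *Plk2*, a stress-induced kinase gene, rose by 0.74 (standard error 0.19, adjusted p = 0.017, edgeR), and *Aen*, *Gadd45a* and *Sesn2*, for an apoptosis-linked nuclease, a growth arrest protein and a stress-induced sestrin, rose by 0.64, 0.50 and 0.45. *Ak1*, an adenylate kinase gene that is abundant in muscle, fell by 1.20 (standard error 0.32, adjusted p = 0.020) and had an adjusted p of 0.076 without WT libraries 1 and 3. *Dram1*, *Tigar*, *Sesn1* and *Ddb2* fell by 0.86, 0.52, 0.43 and 0.38, the first a gene of autophagy and the second of sugar metabolism. The targets with the most counts, *Perp*, *Sulf2* and *Plk3*, had log2 fold changes of 0.19, 0.19 and 0.57 and did not pass (adjusted p = 0.27, 0.18 and 0.080).

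Of 21 damage signalling genes tested, 4 were higher and none lower (19% called, against 34.3% of all genes, median 0.15). Among all genes, 15.3% were called higher and 19.1% lower. *H2afx*, which codes for the histone marked at DNA breaks, rose by 0.60 (standard error 0.14, adjusted p = 0.012, edgeR) with no overlap between groups. Such separation was found in 23.1% of all genes. The checkpoint kinase gene *Chek2* rose by 0.31, the clamp gene *Rad1* by 0.30 and the break-response gene *Trp53bp1* by 0.17, the last with an adjusted p of 0.035 that passed in 1 of 10 fits without a library and was 0.15 without WT libraries 1 and 3. *Atm*, *Atr* and *Chek1* did not pass, nor did *Topbp1* (0.14, adjusted p = 0.14) and *Mdc1* (0.013, adjusted p = 0.91). The 10 proliferation markers had a mean log2(CPM + 1) of 5.01 to 5.78 in WT and 5.56 to 6.02 in Zfp36ΔARE skin, and the part of dividing cells in these differences was not tested.

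Nucleotide excision repair, the pathway that removes bulky adducts of the kind DMBA forms, had 10 of 29 tested genes higher and 1 lower (37.9% called, median 0.097). In the same fit 34.3% of all genes were called, 15.3% higher and 19.1% lower. The risen genes were the TFIIH genes *Ercc2*, *Ercc3*, *Gtf2h1*, *Gtf2h3*, *Gtf2h4* and *Gtf2h5*, the transcription-coupled repair genes *Ercc6*, *Ercc8* and *Xab2*, and *Cetn2*, by 0.17 to 0.38. *Ercc8* was at the edge of the threshold (0.38, standard error 0.14, adjusted p = 0.0498, edgeR). *Ddb2*, which codes for a damage sensor, fell by 0.38 (standard error 0.10, adjusted p = 0.019, edgeR), with no overlap between groups, as in 23.1% of all genes. It is the same gene that was counted above in the list of p53 targets. *Ddb1*, *Rad23b* and *Pcna*, with the most counts, did not pass (0.070, 0.16 and 0.097). Without WT libraries 1 and 3, the list had 4 genes higher and none lower, at a background of 15.9% called, and *Ercc8* and *Ddb2* no longer passed (adjusted p = 0.15 and 0.059).

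In the BCL2 family, 2 of 14 tested genes were higher and 2 lower (28.6% called, against 34.3% of all genes, median -0.25). The survival gene *Bcl2l1* (BCL-XL) rose by 0.37 (standard error 0.090, adjusted p = 0.014, edgeR) and *Bak1*, the close relative of *Bax*, by 0.26. *Bcl2a1d*, a survival gene of blood cells, fell by 0.99 (standard error 0.31, adjusted p = 0.032) and *Bmf*, a BH3-only gene, by 0.55. *Bcl2a1d* has near-identical copies whose reads could be split by counting, and it moved beside a macrophage score of 5.46 to 6.50 in WT and 4.49 to 5.18 in Zfp36ΔARE skin. *Mcl1* and *Bcl2l2* did not pass (-0.069 and -0.12). Of the 5 other CDK inhibitor genes, 40% were called, against 34.3% of all genes. *Cdkn1b* (p27) rose by 0.26 (adjusted p = 0.034) and *Cdkn2c* (p18) fell by 0.47 (adjusted p = 0.023, edgeR), and neither passed without WT libraries 1 and 3. In that fit *Bcl2l1* and *Bcl2a1d* did not pass either (adjusted p = 0.058 and 0.18).

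**Figure D4:**
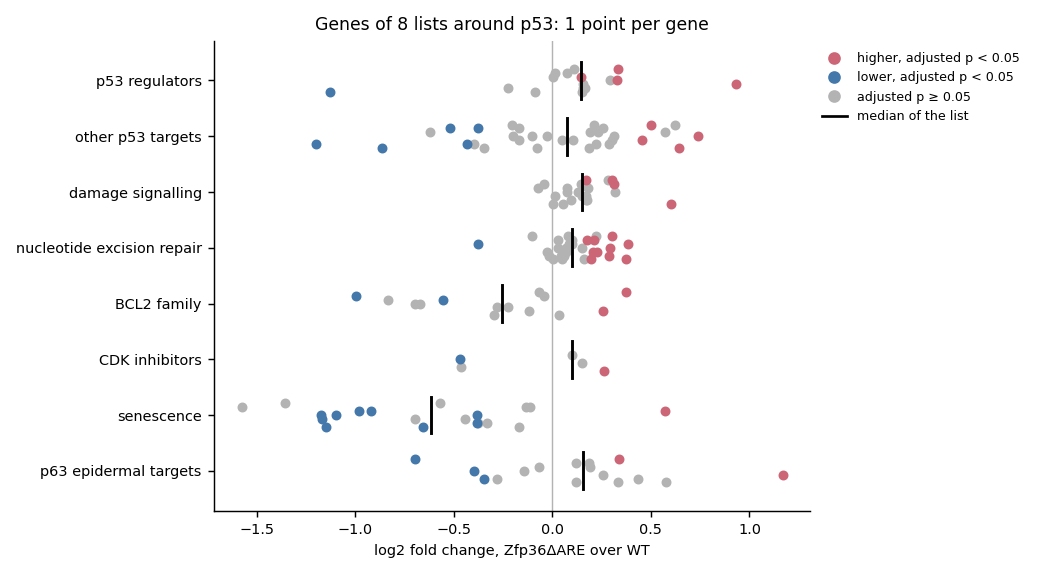
Log2 fold change of Zfp36ΔARE over WT (horizontal axis) for each tested gene of 8 lists, 1 point per gene spread vertically for legibility, colored where the adjusted p was under 0.05, and the median of each list as a black bar. The senescence list has its median at -0.61, and the other medians lie between -0.25 and 0.15.

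The senescence list stood lowest, with 9 of 20 tested genes lower and 1 higher (50% called, median -0.61). Among all genes, 34.3% were called, 19.1% lower and 15.3% higher. The fallen genes included those for secreted factors and their receptors or partners, *Il1b* (by 1.18 on the log2 scale, standard error 0.37, adjusted p = 0.034), *Plaur* (by 1.17), *Igfbp5* (by 1.15, standard error 0.27, adjusted p = 0.013), *Hgf* (by 0.98), *Tnfrsf1b* (by 0.92), *Ccl2* (by 0.66) and *Igfbp7* (by 0.38, adjusted p = 0.0097, edgeR), and for the lysosomal enzyme *Glb1* (by 0.38). *Lmnb1*, whose product lamin B1 is lost in senescent cells, rose by 0.57 (standard error 0.18, adjusted p = 0.031). The chemokine gene *Ccl8* did not pass (-0.38, adjusted p = 0.12), and without WT libraries 1 and 3 neither did *Il1b* (adjusted p = 0.16), whereas *Igfbp5*, *Igfbp7* and *Lmnb1* did. Most of these factors are also made by macrophages, fibroblasts or endothelial cells, and the macrophage, adipocyte and endothelial scores were lower in every Zfp36ΔARE library than in any WT library. The endothelial score ran from 4.49 to 5.61 in WT and from 3.84 to 4.19 in Zfp36ΔARE skin, and the part of these cells was not tested. *Cdkn2a* and *Cdkn1a*, the senescence markers among the members, did not pass the test.

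Of 16 epidermal genes under p63, 2 were higher and 3 lower (31.2% called, against 34.3% of all genes, median 0.15). *Dlx3*, a homeobox gene of differentiating epidermis and hair, rose by 1.17 (standard error 0.32, adjusted p = 0.020, edgeR), beside the higher hair scores given above. *Satb1*, *Dst* and *Itgb4*, for a chromatin organizer and parts of the basal anchoring complex, fell by 0.70, 0.40 and 0.35, the first with an adjusted p of 0.079 without WT libraries 1 and 3. *Krt5* and *Krt14*, the keratins of basal epidermis within this whole skin, were at 112958 ± 26367 and 97413 ± 26482 normalized counts in WT and did not pass (log2 fold changes -0.068 and -0.14, adjusted p = 0.80 and 0.72). With the hair shaft score as a term, no gene of any of the 8 lists passed. That term left 30 of all 15543 genes called (0.193%), so it took away nearly every call in the table.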

How the data were processed

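RNA-Seq libraries of treated back skin from 5 WT and 5 Zfp36ΔARE mice were compared. Per the labels and the methods, the authors aligned reads to mm10 with STAR 2.5.2b, counted fragments per gene with featureCounts (Subread 1.5.0-p1) and deposited raw gene counts without normalization. Handling of strand and of multiply mapping reads is not given in the sources used here. The 2 rows without a gene name, 7.38e-05% of counts, were dropped.

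Counts were analysed with edgeR 4.0.16 in R 4.3.3 (TMM scaling, filterByExpr, robust quasi-likelihood fit, genotype as the only term), with Benjamini-Hochberg adjustment over 15543 genes and a threshold of 0.05. The study's further threshold of a 2-fold change is given beside it. Normalized counts are TMM-scaled counts at the mean effective library size, RPKM uses the gene lengths of the table, and marker scores are mean log2(CPM + 1). For single values an exact permutation test (two-sided) of log2(CPM + 1) over libraries was used, with a smallest possible p of 0.00794. Scripts were first tested on simulated counts. There 200 of 15452 genes were given a change, and 22.9% of DESeq2's calls were false, against 5.14% of edgeR's and 4.07% of limma-voom's. In the skin libraries edgeR called 34.3% of all genes, a far larger share. The share of false calls in the skin libraries was not tested for any of these tools. The p-values set the difference between groups against the spread between mice within a group. They do not separate genotype from the Y-linked mark of sex or from the make-up of the skin pieces.

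The 10 genes and all lists were chosen with earlier results of these data known. Named were all 10 genes and, of each list, the 3 genes with the most normalized counts (not divided by length) and the called genes with the largest rise and fall. Other called list genes, named to complete a count, were chosen after their values were seen. Alternatives were DESeq2 1.42.0, limma-voom (limma 3.58.1), other scalings and filters, a replicate block, and leaving out libraries. Scores of hair shaft, basal keratinocytes and muscle were tried as covariates, the last pair added after seeing the data. Equal replicate numbers did not mark related libraries. Some genes of the lists entered the counts but are not reported here by name.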

Additional observations from a re-analysis of the deposited data

Results flagged for a closer look

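Among the 20 sets of 5 libraries (10 genes in 2 genotypes), 2 had a library far from the other 4, where chance gives about 1. *Cdkn1a* in Zfp36ΔARE replicate 5 was at 6888.6 normalized counts, below the 8116.1 to 8386.6 of the other Zfp36ΔARE libraries (gap 0.819 of the whole range, where 0.71 is the critical value). *Pmaip1* in Zfp36ΔARE replicate 4 was at 357.82 normalized counts, above the 249.22 to 262.27 of the others (gap 0.88 of the range).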

How the results depend on the processing

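With 10 libraries, 2 of the 10 genes passed, *Ccng1* (log2 fold change -0.97) and *Bax* (0.20), as they did with DESeq2, limma-voom, DESeq2's size factors and at least 10 counts in every library. *Bax* no longer passed with upper-quartile scaling (0.16) or no filter (0.195), which left 1 gene called. The log2 fold change of *Trp63*, -0.0085 in the fit of 10 libraries, was 0.0083 with limma-voom. Without WT replicates 1 and 3, 1 gene was called, *Bax* was at 0.22 and *Cdkn2a* at 0.062. With the 5 WT libraries against Zfp36ΔARE replicate 1, a lone library assumed to vary like the WT group, 0 genes were called among the 10, with *Ccng1* at -0.96, *Bax* at 0.15 and *Trp63* at 0.020. No gene of the whole table was called there. With the hair shaft score as a covariate, 0 members were called, with *Ccng1* at -0.25, *Bax* at 0.18, *Trp53* at -0.099, *Cdkn1a* at -0.039 and *Cdkn2a* at 0.175. With the skeletal muscle score, 0 were called, with *Ccng1* at 0.0067, *Bax* at 0.21, *Trp53* at -0.044, *Cdkn1a* at -0.028 and *Bbc3* at -0.011. Under this score *Pmaip1* moved away from 0, from -0.18 to -0.75 (adjusted p = 0.10, edgeR), and *Trp63* to -0.34 (adjusted p = 0.14), and under the hair shaft score they were at -0.47 and -0.21. With the basal keratinocyte score, *Mdm2* passed (0.296), *Bax* did not (0.17), and *Trp63* (0.138), *Cdkn2a* (0.085) and *Pmaip1* (0.041) were above 0. The cause of these changes was not tested.

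Leaving out 1 library at a time gave 1 to 3 called genes. The log2 fold changes ran from -1.09 to -0.65 for *Ccng1*, 0.17 to 0.23 for *Bax*, -0.076 to 0.046 for *Trp63*, -0.47 to -0.27 for *Trp73*, -0.45 to 0.090 for *Cdkn2a*, 0.15 to 0.23 for *Mdm2* and -0.034 to 0.095 for *Bbc3*. Of the called genes named from the lists, *Ppp1r13b*, *Twist1*, *Plk2*, *Ak1*, *H2afx*, *Ddb2*, *Bcl2l1*, *Igfbp5* and *Igfbp7* passed in all 10 such fits, *Dlx3* in 9, *Cdkn2c* in 7, *Lmnb1* in 5, *Il1b* and *Satb1* in 4, *Cdkn1b* and *Bcl2a1d* in 3, *Ercc8* in 2 and *Trp53bp1* in 1. Without WT replicates 1 and 3 together, *Ak1*, *Ddb2*, *Bcl2l1*, *Cdkn2c*, *Il1b*, *Satb1*, *Cdkn1b*, *Bcl2a1d*, *Ercc8* and *Trp53bp1* did not pass.

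Same-numbered libraries of the 2 genotypes did not deviate together (correlations from -0.192 to 0.0851), so they share only a number. The fit with the replicate number as a block called 2740 of all genes in place of 5335. It called 1 member, with *Ccng1* at -0.88, *Bax* at 0.198 and *Trp63* at 0.00061. Under the block the within-library difference of *Bax* and *Bcl2* had an exact p of 0.0625 (adjusted 0.31). Sign changes over 5 pairs allow no smaller p, so no difference could have passed there. None of the 5 such differences passed under the other alternatives.

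Without WT replicates 1 and 3, where 15.9% of all genes were called, the lists had 3 called regulators of p53, 4 further targets, 1 damage signalling gene, 4 nucleotide excision repair genes, 1 BCL2 family gene, 0 CDK inhibitors, 7 senescence genes and 3 p63 targets. Over the fits without WT replicate 3 and without Zfp36ΔARE replicate 1, they had 3 to 4 regulators, 2 to 3 damage signalling genes, 0 to 1 CDK inhibitors and 3 to 5 p63 targets. These fits called 26.7% and 25.9% of all genes, against 34.3% in the fit of 10 libraries. The fewest raw counts were those of *Cdkn2a* (23 to 66) and *Bbc3* (75 to 187).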
